A study of Rattus norvegicus with 4 samples.

Results

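Ewsr1 and Taf15 are rat genes of the FET family of RNA-binding proteins. They were described here in primary rat hippocampal cultures exposed to BPA (bisphenol A, used in making plastics, with weak oestrogen-like activity) and in untreated (Ctrl) cultures. All gene rows and listed m6A peaks that carry either symbol were taken: 2 of 22714 gene rows, 4 of 8183 peaks in the BPA list and 7 of 8192 peaks in the Ctrl list. The 4 libraries formed 4 groups of 1 library each, BPA_IP, BPA_Input, Ctrl_IP and Ctrl_Input. IP is RNA pulled down with an antibody against m6A, the commonest internal methylated base of mRNA, and input is RNA sequenced without pull-down. Per the labels, BPA was given at 1 mM for 48 h, over days 12 to 14 in vitro for the IP sample and days 12 to 13 for the input, while Ctrl cultures had no treatment, and all cultures had received Ara-C, which stops dividing cells, on day 7. The labels state no strain, sex or age of the rats, and not whether an input and its IP came from the same culture.

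FET proteins carry a low-complexity N-terminal region that activates transcription, an RNA recognition motif, a zinc finger and arginine-glycine repeats. They bind RNA polymerase II and nascent transcripts, and they influence transcription and splicing. EWSR1 is the human gene fused to ETS factor genes in Ewing sarcoma, and TAF15 was first found as a substoichiometric partner of the general transcription factor TFIID. The proteins are mainly nuclear, are carried in by transportin and are methylated on arginines by PRMT1. In neurons, FET proteins also occur in RNA granules.

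No group had a replicate, so each difference is between 2 libraries, no test between conditions could be run, and intervals cover read counting only. The input counts summed to 9774929 in the BPA library and 9837064 in the Ctrl library. Neuronal markers were well detected: 6 of 6, summing to 1081 FPKM (fragments per kilobase and per unit of library depth) in the BPA input and 999.8 in the Ctrl input. The 4 astrocyte markers summed to more, 3449 FPKM in the BPA input and 3624 in the Ctrl input, in cultures labelled as neurons. The 4 microglial markers summed to 69.9 and 68.5 FPKM in the BPA and Ctrl inputs, and the 3 oligodendrocyte markers to 82.0 and 82.6, with Mog at 0 in the Ctrl input. Of the endothelial markers, Cldn5 was at 0 in both inputs and Pecam1 was at 0.227 FPKM in the BPA input and 0.168 in the Ctrl input. The part of the cell mixture in the values below was not tested, and in bulk RNA fewer cells of a type and less RNA per cell cannot be told apart.

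Ewsr1 was the member that stood apart between the inputs, and a row described as EWS-like differed in the other direction. The Ewsr1 row (ENSRNOG00000009437, chromosome 14, 85999931 to 86028404, minus strand, in the files' coordinates) had 111 counts in the BPA input and 19.2 in the Ctrl input, or 109 and 19 whole reads. Its ratio was 5.81 (exact 95% counting interval 3.55 to 10.02), a log2((BPA + 1)/(Ctrl + 1)) of 2.48. The members were chosen by this value, so it is a description. Among the 13006 rows with a mean of at least 10 counts, 135 (1.04%) were higher in the BPA input by 2-fold or more, and Ewsr1 ranked 33 from the top. Of the 10945 rows with a mean of at least 50 counts, 26 (0.238%) were higher by that much. Within the 1407 rows with a mean of 50 to 100 counts, where Ewsr1 lies, 1.85% were past 2-fold in either direction. Of these rows 7, Ewsr1 included, were as high as Ewsr1.

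The tables hold another row described as an EWS-like RNA-binding protein, LOC100912481 (ENSRNOG00000046950, chromosome 4, 24535689 to 24564164, plus strand). It had 106 counts in the BPA input and 204 in the Ctrl input, or 104 and 202 whole reads. Its ratio was 0.521 (interval 0.408 to 0.664) and its log2 ratio -0.93, just short of 2-fold. LOC100912481 ranked 145 from the bottom of the 13006 rows, of which 0.984% were lower by 2-fold or more. Of 3323 rows with a mean of 100 to 300 counts, 14, this one included, were as low. The central 95% of the 3323 rows lay between log2 ratios of -0.44 and 0.47, with 0.572% past 2-fold in either direction.

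Summed, the Ewsr1 and EWS-like rows did not differ beyond counting error. They had 218 counts in the BPA input and 223 in the Ctrl input, a ratio of 0.976 (interval 0.805 to 1.18) and a log2 ratio of -0.035. What differed was the split between them. The Ewsr1 row held 109 of 213 reads (51.2%, exact 95% interval 44.3 to 58.1) in the BPA input and 19 of 221 reads (8.60%, 5.26 to 13.1) in the Ctrl input. In FPKM the sum was 10.02 in the BPA input and 10.3 in the Ctrl input.

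**Figure D1:**
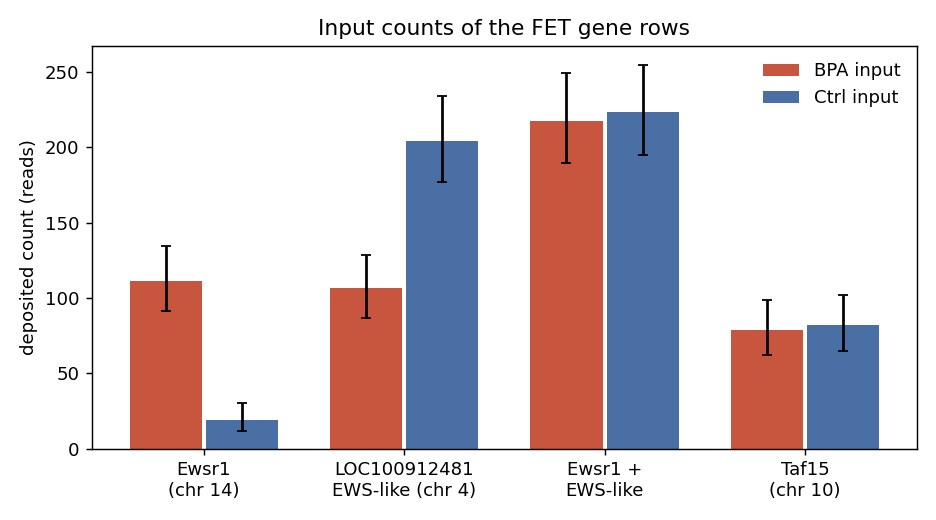
Deposited input counts (y axis) of the Ewsr1 row, the EWS-like row, their sum and the Taf15 row, with BPA left and Ctrl right in each pair; error bars are exact 95% Poisson intervals for counting error, with 1 library per bar. The Ewsr1 pair stands at 111 and 19.2 counts and the EWS-like pair at 106 and 204, while the sums of 218 and 223 and the Taf15 counts of 78.7 and 81.8 overlap within their bars.

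The gene models of both rows were alike. The loci span 28474 bp for Ewsr1 and 28476 bp for LOC100912481. Each count was worth 0.0460 FPKM in both rows and in both libraries, so the authors' quantification gave them the same effective length. The GRCr8 RefSeq gene table matched Ewsr1 by its gene number and lists 6 pseudogene entries under its symbol, while the gene number of LOC100912481 had no match there. The sequence identity of the rows was not measured. Near-identical copies can share reads. If these rows are such copies, which was not tested, the level of the Ewsr1 row alone is uncertain. Whether the same molecules were assigned to one row in one library and to the other row in the other was not tested.

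The genes beside Ewsr1 on chromosome 14 did not follow it. Rhbdd3, a rhomboid-domain gene that begins 571 bp beyond the Ewsr1 start on the opposite strand, had 126 counts in both inputs, a log2 ratio of -0.0051. Gas2l1, which encodes a cytoskeletal linker of the Gas2 family and lies 4115 bp beyond the other end, had 321 counts in the BPA input and 340 in the Ctrl input (-0.084). Rasl10a, a small GTPase gene listed at the same locus as Gas2l1, had 17.4 counts in the BPA input and 19.2 in the Ctrl input (-0.13). None of these rows was past 2-fold. Ewsr1 was chosen for its ratio, and only 1.04% of all tested rows were 2-fold higher in the BPA input. Neighbours short of 2-fold are thus near the background.

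Taf15 differed little between the inputs. Its row (ENSRNOG00000010604, chromosome 10, 70322902 to 70355482, plus strand) had 78.7 counts in the BPA input and 81.8 in the Ctrl input, or 77 and 81 whole reads. The ratio was 0.963 (interval 0.695 to 1.33) and the log2 ratio -0.054, beside a median of 0.0019 over all 13006 tested rows. At this depth a change smaller than the interval was not detectable. The genes listed beside it, Mmp28 (a matrix metallopeptidase) and Heatr9, were at 0 counts in both inputs.

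**Figure D2:**
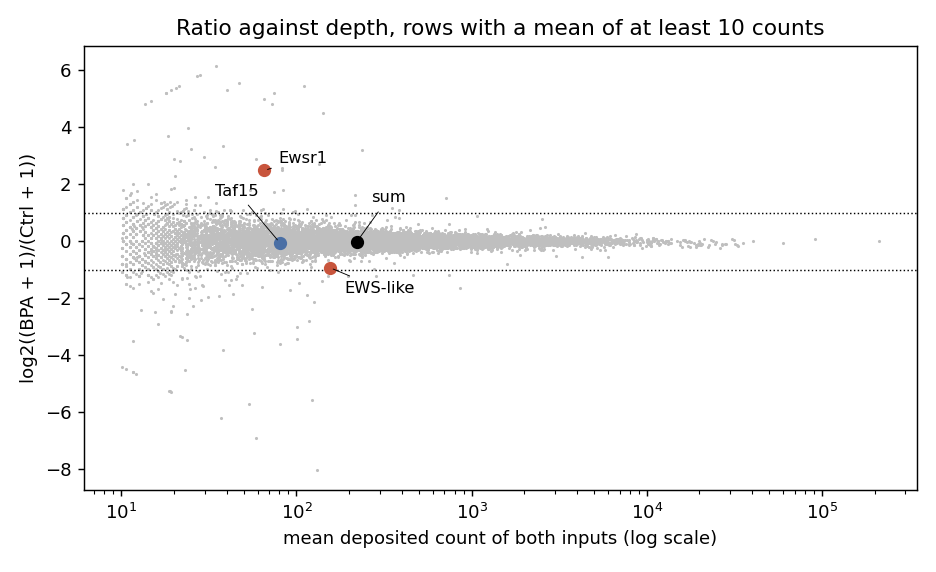
Log2((BPA + 1)/(Ctrl + 1)) on the y axis against the mean deposited count of both inputs on a log x axis, for 13006 rows (grey), with the Ewsr1 row, the EWS-like row, their sum and Taf15 marked; dotted lines are 2-fold. Ewsr1 lies at 2.48 above the cloud, the EWS-like row at -0.93 on its lower edge, and the sum (-0.035) and Taf15 (-0.054) lie in its centre.

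The order of the members' levels depended on the scale. By deposited counts, Ewsr1 with its EWS-like row (218 in the BPA input, 223 in the Ctrl input) was above Taf15 (78.7 and 81.8). Per length it was below: the Ewsr1 and EWS-like rows summed to 10.02 FPKM in the BPA input and 10.3 in the Ctrl input, against 20.7 and 21.6 FPKM for Taf15. A count of Taf15 was worth 0.263 FPKM in the BPA input and 0.265 in the Ctrl input, 5.73 times the worth of a count of the EWS-like row in the BPA input. Only 3.25% of tested rows had as high a worth per count as Taf15 in the BPA input, which corresponds to a short effective length. By FPKM, Taf15 stood above 64.0% of tested rows in the BPA input and 65.2% in the Ctrl input, while the Ewsr1 row alone stood above 24.2% and 4.44%.

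The rows most like Ewsr1 in log2 ratio, over 2 libraries and among the 10372 rows at or above a mean of 50 counts that carry a proper symbol, were Hmgb3 and Gspt1. Hmgb3, a high mobility group chromatin protein, had 142 counts in the BPA input and 24.2 in the Ctrl input, which put it 0.026 from Ewsr1 on the log2 scale. Gspt1, the translation termination factor eRF3a, had 141 counts in the BPA input and 23.2 in the Ctrl input, 0.074 from Ewsr1. Hmgb3 has another row under its symbol, with 3.07 counts in the BPA input and 6.06 in the Ctrl input. The sum of both Hmgb3 rows had a log2 ratio of 2.22. Gspt1 was paired with the row LOC100911685, also on chromosome 10, which had 25.6 counts in the BPA input and 26.2 in the Ctrl input. Whether LOC100911685 is a copy of Gspt1 was not tested. Summed with that row, Gspt1 had a log2 ratio of 1.73, against 2.55 alone. The next rows were Cttn (cortactin, of branched actin) above, 0.73 away at 427 counts in the BPA input and 45.4 in the Ctrl input, and below it Eno2 (neuronal enolase, 0.70 away), Gstm5 (a glutathione transferase, 0.87) and Rps27a (a ribosomal protein made as a ubiquitin fusion, 0.95).

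m6A peaks were listed for Taf15 in both conditions and for Ewsr1 in the Ctrl list only. Each peak has a score, by the header minus 10 times the log10 of a p-value, and a fold enrichment of IP against input. Both are the authors' values, and both describe a peak within its own list. The files do not say which exon a peak lies in. No genome or annotation of their build was used, so no peak sequence is shown.

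Taf15 had 4 peaks in each list, and 3 were at the same positions with the same edges. Of 1395 genes with a mean of 50 to 100 input counts, 1.00% had at least 4 peaks in the BPA list and 1.15% in the Ctrl list. Of all peaks, 73.4% of the BPA list and 73.3% of the Ctrl list overlapped a peak of the other list, so 3 of 4 is near that background. Of 211 genes with 4 Ctrl peaks, 32.2% also had 4 in the BPA list.

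The strongest Taf15 peak lay near the end of the locus, from 70353658 to 70353914 on chromosome 10, 1568 to 1825 bp before the annotated end. Its fold enrichment was 14.1 with a score of 855 in the BPA list and 17.5 with a score of 977 in the Ctrl list. It stood above 92.3% of peak scores in the BPA list and 93.8% in the Ctrl list. The next peak, from 70334717 to 70334907, had nearly the same values in both lists, with a fold enrichment of 8.35 and a score of 352 in the BPA list, and 8.41 and 326 in the Ctrl list.

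The third shared Taf15 peak, from 70336183 to 70336303, kept most of its enrichment while its score was far lower in the BPA list. Its fold enrichment was 6.86 in the BPA list and 8.36 in the Ctrl list, and its score was 3.95 in the BPA list, by the header a p of 0.403, and 133 in the Ctrl list, a p of 4.62e-14. Of 717 peaks with the same edges in both lists and a Ctrl score of 100 to 200, 22 (3.07%) had a BPA score under 10, and 6, this one included, had one as low as 3.95. By fold enrichment the same peak was less apart, with 121 of the 717 as low or lower in their log2 ratio.

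**Figure D3:**
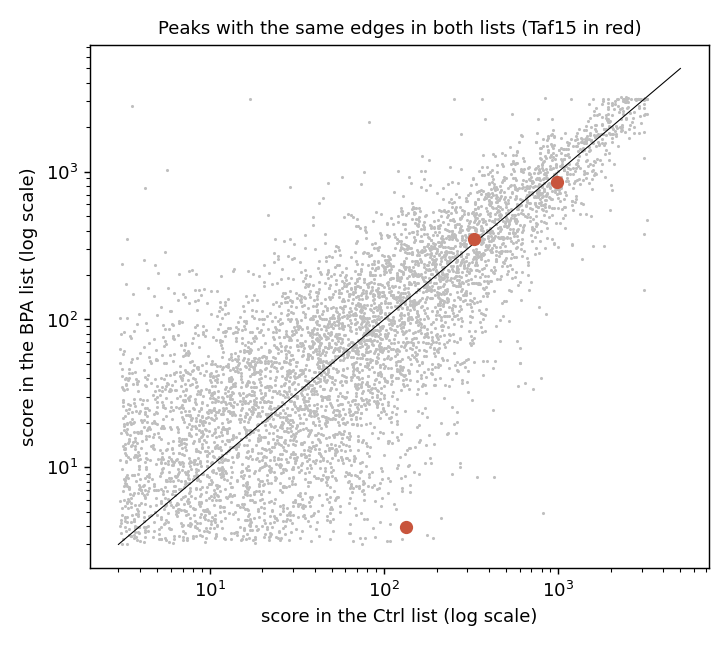
Score in the BPA list (y axis, log scale) against score in the Ctrl list (x axis, log scale) for 5708 peaks with the same edges in both lists, with the 3 shared Taf15 peaks in red and the line of equal scores. Taf15 peaks with scores of 855 and 977, and of 352 and 326, lie near the line, and the peak with 3.95 in the BPA list and 133 in the Ctrl list lies far below it.

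Each list held 1 Taf15 peak that the other lacked. The BPA list had a peak from 70352853 to 70353038, upstream of the strongest one, with a fold enrichment of 6.36 and a score of 92.1. Of BPA peaks with a score of 50 to 100, 84.6% overlapped a Ctrl peak, and this one did not. The Ctrl list had a peak over the first 121 bp of the locus, with a fold enrichment of 5.98 and a score of 3.73, a p of 0.424 by the header. Of Ctrl peaks with a score under 10, 44.7% overlapped a BPA peak.

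Ewsr1 had 0 peaks in the BPA list and 3 in the Ctrl list, and these were spread over both loci. On chromosome 14, the Ctrl list gave a peak over the first 49 bp of the Ewsr1 locus, 86028356 to 86028404, with a fold enrichment of 5.79 and a score of 24.8. It gave another from 86023371 to 86023422, about 5 kb into the gene, with 5.09 and 11.8, by the header a p of 0.0667. The Ewsr1 peak with the highest score, 131 with a fold enrichment of 6.70, was placed on chromosome 4 from 24563582 to 24563834. That is inside the EWS-like locus, 330 to 583 bp before its end, although the list names the gene Ewsr1 and the transcript NM_001025632. Of 7981 Ctrl peaks whose gene has an input row, 19 (0.238%) lay on another chromosome than every row of their gene, and in the BPA list 18 of 7959 (0.226%) did.

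**Figure D4:**
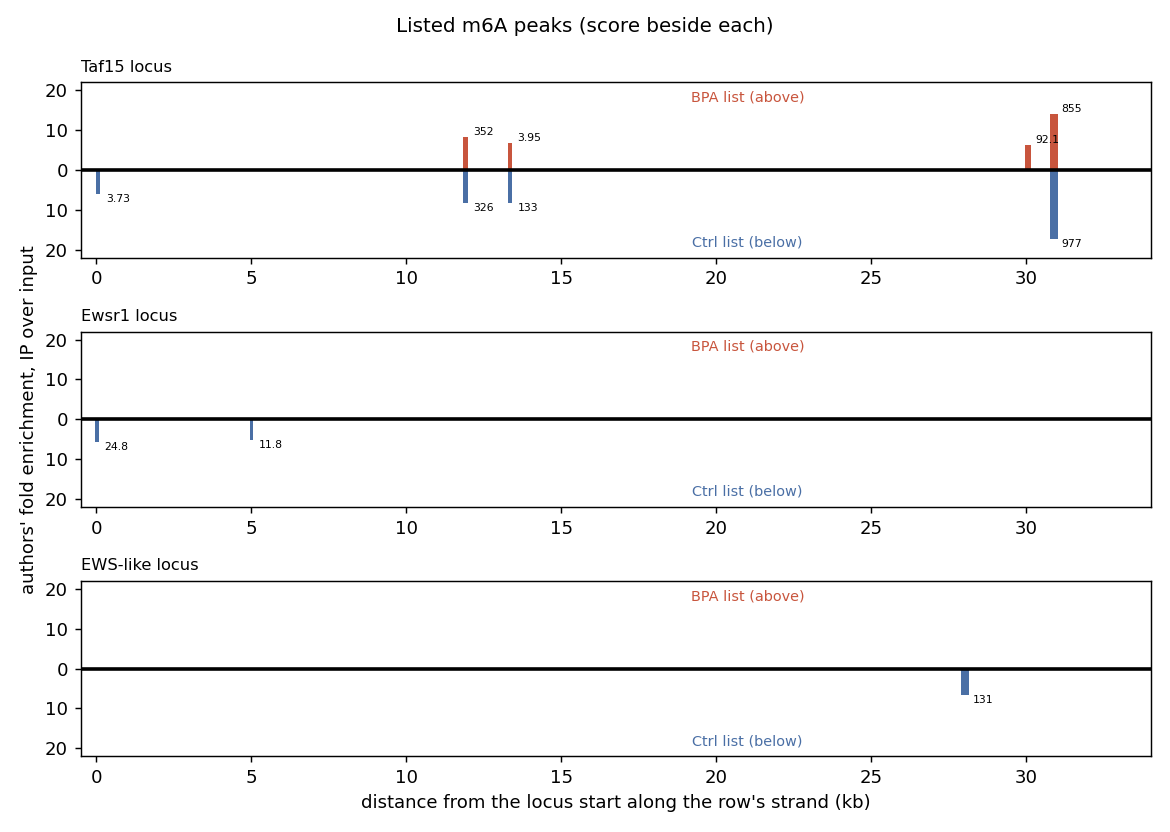
Listed m6A peaks along the Taf15, Ewsr1 and EWS-like loci, with the distance from the locus start along the row's strand on the x axis (kb), the deposited fold enrichment as bar height (BPA list upward, Ctrl list downward) and the score printed beside each bar; short peaks are widened to be visible. Taf15 has 4 peaks on each side, 3 of them mirrored, while the Ewsr1 and EWS-like loci have peaks on the Ctrl side only, 2 and 1.

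The BPA list held no peak under any name at the EWS-like locus, and LOC100912481 was not used as a gene name in either list. Most genes at the mean input depth of the EWS-like row had no listed peak, whether or not they had a Ctrl peak. Of 2184 genes with a mean of 150 to 300 input counts, 30.1% had a peak in the BPA list and 31.0% in the Ctrl list. Having none of 3 was rarer: of 423 genes with 3 Ctrl peaks, 9 (2.13%) had none in the BPA list. These genes were not matched to Ewsr1 in peak score or depth, and the 3 peaks named Ewsr1 are split between chromosomes 14 and 4. Across both lists, 693 of 4781 genes (14.5%) had peaks in the Ctrl list only. Of Ctrl peaks with a score of 100 to 200, 93.0% overlapped a BPA peak. The Ctrl peak at the EWS-like locus, with a score of 131, did not. Of Ctrl peaks with a score of 10 to 30, the range of both peaks at the Ewsr1 locus, 63.7% overlapped a BPA peak. Peak numbers run to 13193 in the BPA list and 13908 in the Ctrl list, so not every numbered peak is listed, and a peak not listed is not shown to be absent. The part of the different split of input reads between these loci, given above, in the peak difference was not tested.

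Over 6 lists of genes that work with FET proteins, 61 of 66 symbols matched a row and 57 had a mean of at least 10 counts. None of the 57 was past 2-fold in either direction. As 2.02% of all tested rows were, and 0.475% of those with a mean of at least 50 counts, where 52 of the 57 lie, a count of 0 is near the background. Their median log2 ratio was -0.019, with 26 higher and 31 lower, beside the median of 0.0019 over all tested rows.

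Transportin, which imports FET proteins into the nucleus, and the arginine methyltransferases had 4 of 4 members measured and a median of -0.0029. Tnpo1 had 2355 counts in the BPA input and 2472 in the Ctrl input (log2 ratio -0.070), and Tnpo2 had 2232 and 2189 (0.028). Prmt1, the main arginine methyltransferase, had 445 counts in the BPA input and 455 in the Ctrl input (-0.034). Prmt8, a brain form of the enzyme, had 405 and 387 (0.066). All 4 had counting intervals that included a ratio of 1.

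TFIID, the general factor that TAF15 can join, had 12 of 14 members measured, with a median log2 ratio of 0.044, 7 higher and 5 lower. Among members with a mean of at least 50 counts, Taf5 (82.8 counts in the BPA input, 103 in the Ctrl input, -0.31) and Taf12 (202 and 170, 0.25) had the largest ratios. Taf9, listed as TAF9, had 629 counts in the BPA input and 549.9 in the Ctrl input (0.19, ratio interval 1.02 to 1.28), and Taf10 had 193 and 170 (0.19). RNA polymerase II subunits had 8 members tested, with a median of -0.034. The largest ratios there were those of Polr2d (201 counts in the BPA input, 177 in the Ctrl input, 0.19), Polr2e (406 and 459, -0.18), Polr2c (370.1 and 327, 0.18) and Polr2f (286 and 306, -0.095).

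Of the splicing and nuclear RNA-binding partners, the U1 snRNP, which recognises the start of introns, had 6 members with a median log2 ratio of 0.0023. Snrpa was its largest at 133 counts in the BPA input and 107 in the Ctrl input (0.31, ratio interval 0.954 to 1.62), followed by Luc7l2 (-0.055), Snrpc (0.043) and Luc7l (-0.039). Paraspeckle proteins had a median of -0.097 over 3 members. Sfpq, which binds RNA with Nono, had 1319 counts in the BPA input and 1494 in the Ctrl input (-0.18, ratio interval 0.819 to 0.952). Nono had 1863 and 1993 (-0.097, 0.877 to 0.997), and Pspc1 had 376 and 349 (0.11).

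The hnRNP proteins, which coat nuclear transcripts, had 24 members tested, with a median of -0.022, 10 higher and 14 lower. Hnrnpa0 had 306 counts in the BPA input and 240.3 in the Ctrl input (0.35, ratio interval 1.07 to 1.51), and Hnrnpa1 had 268 and 222 (0.27, 1.00 to 1.45). Hnrnpdl had 110.3 and 128 counts (-0.22, 0.66 to 1.12) and Hnrnph2 991 and 1119 (-0.18, 0.811 to 0.965). Hnrnpf (log2 ratio -0.15), Ptbp1 (-0.16), Hnrnpu (-0.081) and Hnrnpk (-0.062) also had counting intervals below a ratio of 1. Hnrnpk has 2 rows under its symbol, and its value is that of the row with most reads. Over the 57 partner genes, 3 had a counting interval above a ratio of 1 and 7 below it, where 9.19% of all tested rows were above and 9.13% below, so these counts are near the background. These intervals hold no spread between cultures. Peaks were listed in both conditions for 24 of the 57 (42.1%), as for Taf15, in the BPA list only for 1 (1.75%), and in the Ctrl list only for 3 (5.26%), as for Ewsr1. Over all 12923 symbols with a mean of at least 10 counts, 24.2% had peaks in both lists, 5.19% in the BPA list only and 4.81% in the Ctrl list only. The partners were more deeply counted, with a median of 477 input counts against 275 over all tested rows. The part of depth in these shares, and in the counts of intervals above or below 1, was not tested.

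**Figure D5:**
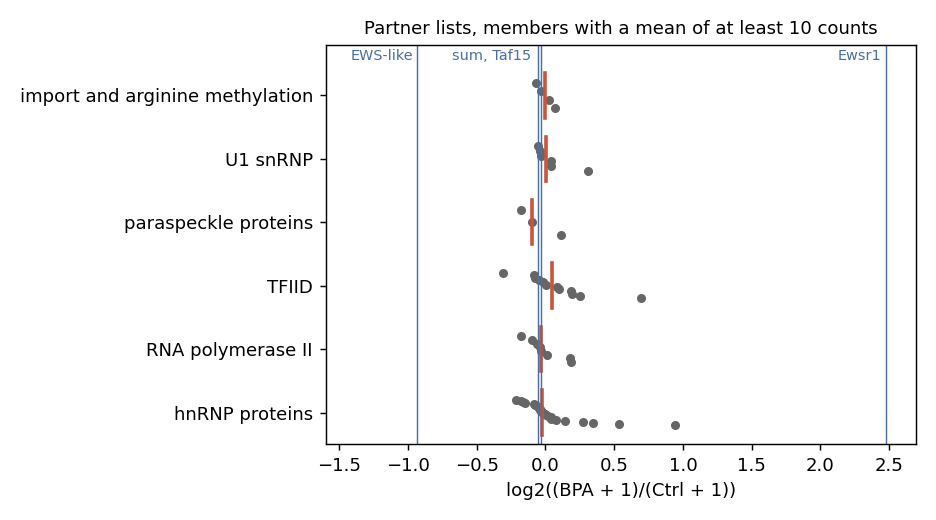
Log2((BPA + 1)/(Ctrl + 1)) on the x axis for the 57 tested genes of 6 partner lists (points, 1 row per list, offset vertically for clarity), with each list's median as a red bar and the EWS-like row, the Ewsr1 and EWS-like sum, Taf15 and Ewsr1 as blue lines. No partner reaches 1 or -1, the medians lie between -0.097 and 0.044, and the line of Ewsr1 at 2.48 stands apart from the points while that of the sum (-0.035) lies among them.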

How the data were processed

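Input RNA and m6A-immunoprecipitated RNA were measured in 1 library per group, grouped by sample title. Cutadapt 1.9.3, HISAT2 2.0.4 and STAR appear, without roles, in the submitters' processing notes. The quantifier and the build were not given in the sources used here; peak names start with MACS, per the deposited lists. Per the file headers, each gene row of the authors' input tables holds an estimated count and an FPKM value. The deposited counts are multiples of 1.02 (BPA) and 1.01 (Ctrl), and dividing by these left 96.4% of values under 300 reads within 0.01 of whole. The deposited peak lists give, per the file headers, a score, a fold enrichment ratio and an FDR in percent (100 for each peak). Starts were taken as counted from 0 and are printed 1-based.

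Log2((BPA + 1)/(Ctrl + 1)) was computed for rows with a mean of at least 10 counts (Python 3.11.15, scipy 1.17.1); a log2 ratio of 1 counted as 2-fold. Intervals are exact Clopper-Pearson from whole reads. Peaks shared at least 1 bp. With 1 library per group no test was run. Alternatives used edgeR 4.0.16 and DESeq2 1.42.0 factors, other pseudocounts, filters and overlaps. The ratio rule was tested on simulated data. List rows were matched by symbol, taking the row with most reads. Named genes were all member rows and peaks, rows whose description names the same protein (LOC100912481, described as EWS-like), chromosomal neighbours, the 3 nearest ratios on each side of Ewsr1, and up to 4 members per list with the largest ratio at a mean of at least 50 counts. The other row of Hmgb3, the row LOC100911685 paired with Gspt1, and hnRNP genes named only for an interval below 1 were added after their values were seen. Members and lists were chosen with earlier results of these data known.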

Additional observations from a re-analysis of the deposited data

How the results depend on the processing

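The Ewsr1 log2 ratio of 2.48 became -0.035 when the row was summed with the EWS-like row, and 1.70 on the FPKM + 1 scale. Under other pseudocounts and scalings it lay within its counting interval, as did those of Taf15, the EWS-like row and the sum. The DESeq2 factors were 1 for both libraries and the edgeR factors 1.0008 (BPA) and 0.9992 (Ctrl), so these scalings could hardly move a ratio. Rows 2-fold higher numbered 135 and 2-fold lower 128. Without the filter there were 1028 and 918, at a mean of at least 50 counts 26 and 26, and at a threshold of 0.58 there were 433 and 395. All 24 alternative medians of the partner lists, between -0.0997 and 0.045, moved by less than a typical member's counting error, although the paraspeckle median changed sign to 0.0063 without the filter. Shared Taf15 peaks numbered 3 under each overlap rule and 2 at scores of at least 20 or 100. For Ewsr1 no rule could give a number other than 0, because the BPA list has 0 Ewsr1 peaks. No paired analysis was possible because each group has 1 library. Depth limits each ratio: Ewsr1 rests on 109 and 19 reads in the BPA and Ctrl inputs and Taf15 on 77 and 81.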
